A study of Arabidopsis thaliana with 12 samples.

Results

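Messenger RNA of pnet2_ac seedlings was compared with that of wild-type (WT) seedlings of Arabidopsis thaliana across all genes, in the 3 pnet2_ac and 3 WT libraries that are 6 of the 12 libraries of the series. The pnet2_ac plants carried mutations in the genes for PNET2A and PNET2C, members of a small family of nuclear membrane proteins; both genotypes were of ecotype Col-0. All seedlings were harvested whole at 7 days, without treatment, from half-strength MS medium that contained 1% sucrose. The double mutant pnet2_bc, with mutations in PNET2B and PNET2C and 3 libraries grown the same way, serves below only for comparison with pnet2_ac. No source used here gives the mutant alleles or the gene IDs of PNET2A, PNET2B and PNET2C. Whether replicate libraries were made from different pools of seedlings is not stated in the labels; the p-values therefore cover the variation among the sequenced libraries and nothing beyond it.

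The nuclear envelope is the double membrane around the nucleus. Proteins of its inner membrane contact the chromatin beneath it, and in plants, as in animals, loss of such proteins can alter the shape of the nucleus, the arrangement of chromatin and the activity of genes. A whole 7-day-old seedling holds green cotyledons and first leaves, hypocotyl and root, so its messenger RNA is a mixture of photosynthetic and root tissues. Fewer cells of a type and less RNA per cell cannot be told apart in such samples.

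Levels are given as CPM (the reads counted for a gene per 1000000 counts of the library, after TMM adjustment), which can be compared between libraries for 1 gene but not between genes. The libraries held 115881203, 75139987 and 70551820 counts in pnet2_ac and 79283837, 71779655 and 79237363 counts in WT, in the order of their replicate numbers. At this depth 3 counts in a library equal 0.0262 to 0.0436 CPM. Of 27436 listed genes, 23330 had enough counts to be tested with edgeR's quasi-likelihood test, and a gene is said to have risen or fallen only where its p, adjusted by the Benjamini-Hochberg method over all tested genes, was under 0.05. In brackets after the values of a gene stand the log2 fold change, pnet2_ac minus WT, with its SE, and then the adjusted p. Gene symbols and positions come from the RefSeq annotation of build TAIR10.1, joined by gene ID.

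The genes that the mutations could affect were examined first. The reference annotation gives the family's domain, DUF2215, to 3 genes, and none of them was called. AT1G28760 (chromosome 1) had 5.82, 4.78 and 5.40 CPM in the pnet2_ac libraries, against 3.65, 3.79 and 4.48 CPM in the WT libraries (0.43 ± 0.13, adjusted p = 0.154), so all 3 pnet2_ac libraries lay above all 3 WT libraries. AT3G49840 had 6.39, 7.31 and 6.36 CPM in pnet2_ac, against 9.30, 8.03 and 10.8 CPM in WT (-0.49 ± 0.17, 0.209), with every pnet2_ac library below every WT library. AT5G67610 had 24.1, 22.6 and 20.9 CPM in pnet2_ac and 22.3, 18.9 and 23.6 CPM in WT (0.06 ± 0.10, 0.863), and the groups overlapped. A mutation need not change the number of reads over its gene, so these levels are no test of any library's label.

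Across all genes, 266 were called, 1.14% of those tested: 105 rose (0.45%) and 161 fell (0.69%). In each of the 266 the 3 pnet2_ac libraries lay wholly on one side of the 3 WT libraries, in CPM and in the deposited TPM alike. Separation of that kind was found in 9.73% of all tested genes upward and in 9.91% downward. Most of the called differences were small. Only 49 called genes differed by at least 2-fold (35 higher, 14 lower), 65 by 1.5-fold to 2-fold and 152 by less than 1.5-fold, and 105 of these 152 were lower. The genes that fell drew more reads, with a median of 96.2 CPM over the 6 libraries on this scale without gene length, against 25.9 CPM for the genes that rose and 12.2 CPM for all tested genes. The share of called genes that were higher was 39.5% under TMM scaling, 67.6% with library size alone and 65.2% with the deposited TPM values, of which 411 were called (2.09% of 19680 tested). It was 26.9% when the fit held only the 6 libraries. DESeq2 called 1087 genes, the 266 among them. The groups of genes below are described relative to a median log2 fold change of 0.01 over all tested genes, which was 0.07 with library size alone. At an unadjusted p under 0.05, 1757 of the 23330 tested genes were higher and 1641 lower. Counts at that level in the lists below are to be read beside these.

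The functional groups came from 33 gene lists, 8 lists of cell type markers and 36 families taken from annotation text; 71 of the 266 called genes belonged to at least 1 of the lists or families and 195 to none. The plot of lists by library sets each library's median beside the others. In 6 of the 33 lists the medians of all 3 pnet2_ac libraries lay above those of all 3 WT libraries, in 9 they lay below, and in the others the genotypes overlapped. The gap between the nearest pnet2_ac and WT libraries was 0.55 on the log2 scale for the sulfur starvation list, 0.23 for the anthocyanin and flavonol list and 0.19 for the oxidative and mitochondrial stress list, the widest of the 33.

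**Figure D1:**
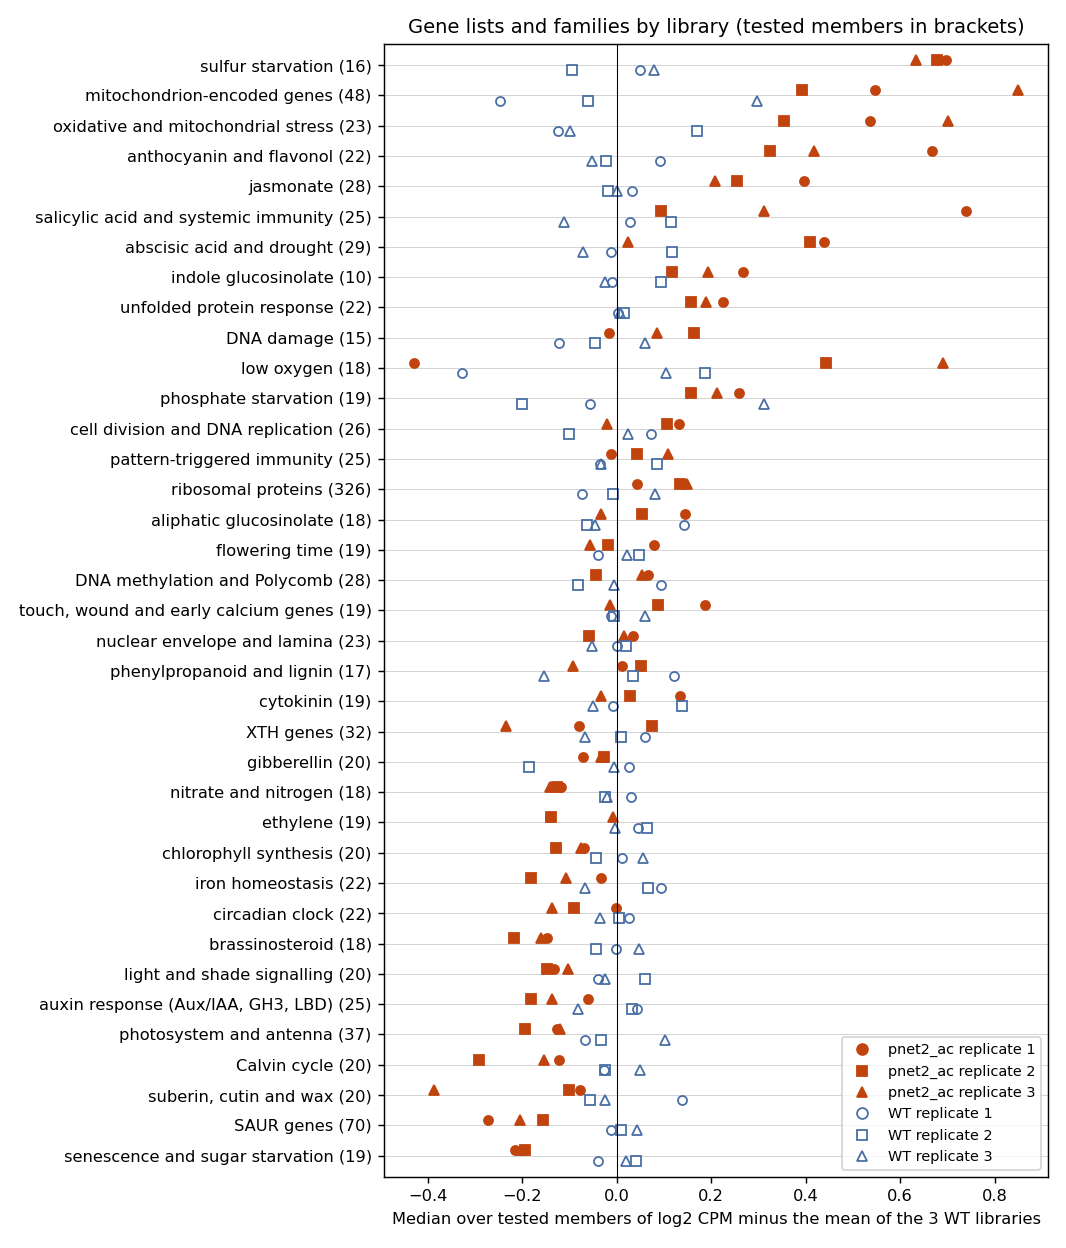
Median over the tested members of each gene list or family of log2 CPM minus the mean of the 3 WT libraries (x axis), for the 3 pnet2_ac libraries (filled) and the 3 WT libraries (open), with the number of tested members in brackets. The sulfur starvation list stood at 0.70, 0.68 and 0.63 in the pnet2_ac libraries and at 0.05, -0.09 and 0.08 in the WT libraries, while the low oxygen list was spread over -0.43, 0.44 and 0.69 in the pnet2_ac libraries.

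Genes of sulfate uptake and reduction rose, and no member of their list fell. Plants take up sulfate through SULTR transporters, activate it with ATP sulfurylase, reduce it with APS reductase and build it into cysteine on a backbone made from serine; many of these genes are known to be induced when sulfur is short. Of the 16 tested members of the sulfur starvation list, 6 rose and 0 fell, 14 had all 3 pnet2_ac libraries above all 3 WT libraries, and the median log2 fold change was 0.67, against 0.01 for all tested genes. Among all tested genes 9.73% lay wholly above WT. The 3 APS reductase genes rose together. APR3 (AT4G21990, chromosome 4) had 268, 272 and 283 CPM in pnet2_ac, against 179.6, 162 and 190.3 CPM in WT (0.63 ± 0.07, adjusted p = 0.00253). APR1 (AT4G04610) had 202, 202 and 194 CPM in pnet2_ac and 135, 118 and 142 CPM in WT (0.60 ± 0.08, 0.00812). APR2 (AT1G62180) had 519.9, 507 and 499.6 CPM in pnet2_ac and 376, 363 and 401 CPM in WT (0.42 ± 0.06, 0.011). In each of the 3 genes the pnet2_ac libraries differed by less than 1.2-fold from one another and every one of them lay well above the highest WT library. APR2 overlaps a gene on the opposite strand over 782 bases, and because the strand setting used in counting is not stated, its reads cannot be told apart from those of that gene.

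Outside the reductases, SHM7 (AT1G36370), a serine hydroxymethyltransferase gene known to respond to sulfur supply, had 135, 160.0 and 139 CPM in pnet2_ac, against 91.1, 79.0 and 95.7 CPM in WT (0.71 ± 0.10, adjusted p = 0.00955). The root sulfate transporter gene SULTR1;2 (AT1G78000) had 61.1, 56.6 and 50.7 CPM in pnet2_ac and 42.6, 36.2 and 29.5 CPM in WT (0.64 ± 0.13, 0.0408). LSU2 (AT5G24660), one of the genes named for their response to low sulfur, had 44.2, 47.0 and 39.2 CPM in pnet2_ac and 26.6, 23.9 and 26.4 CPM in WT (0.76 ± 0.15, 0.0319). The groups were separate in all 3 genes, and nearest to each other in SULTR1;2. Several members had larger fitted differences and were not called: LSU1 (AT3G49580, 1.58, adjusted p = 0.382), LSU3 (AT3G49570, 1.16, 0.0624), ATSDI1 (AT5G48850, 1.18, 0.185) and AT5G26220 (1.51, 0.0585), the last of which encodes an enzyme that breaks down glutathione. SULTR2;1 (AT5G10180), which moves sulfate within the plant, had 65.6 ± 10.8 CPM in pnet2_ac and 73.7 ± 13.0 CPM in WT (SD, n = 3 each) and was not called.

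A wider list of 32 genes of sulfate uptake and assimilation, drawn up after these values were seen, had 6 rises and 0 falls and a median of 0.11. Of its genes 12 (37.5%) lay wholly above WT and 4 (12.5%) wholly below. Its medians were 0.201, -0.004 and 0.142 in pnet2_ac, with replicate 2 inside the WT range of -0.007, 0.015 and -0.012. This wider list adds SULTR4;1 (AT5G13550), which releases sulfate from the vacuole and had 51.6, 42.3 and 49.3 CPM in pnet2_ac, against 33.5, 32.6 and 31.1 CPM in WT (0.56 ± 0.10, 0.023). It also adds APS3 (AT4G14680), an ATP sulfurylase gene, which had 33.9, 30.3 and 33.7 CPM in pnet2_ac and 23.1, 20.6 and 24.9 CPM in WT (0.51 ± 0.10, 0.0331). APR1, APR2, APR3 and SHM7 kept their calls with any 1 of the 6 libraries left out (adjusted p at most 0.0473). SULTR1;2 kept its call only without WT replicate 1 (0.0431), with adjusted p of 0.0731 to 0.122 without any other library. SULTR4;1 kept its call only without pnet2_ac replicate 2 (0.0268), with adjusted p of 0.0632 to 0.0907 without any other library. LSU2 and APS3 lost theirs with any 1 library left out (adjusted p 0.0685 to 0.113 and 0.0531 to 0.114). None of the 8 passed the test between pnet2_ac and pnet2_bc (adjusted p 0.214 to 0.998), which does not show that the double mutants were alike. Against the same 3 WT libraries the sulfur starvation list had a median of 0.60 in pnet2_bc, with 0.60 for APR3 and 0.19 for SULTR1;2 (adjusted p = 0.00435 and 0.68).

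PGDH (AT1G17745), EDA9 (AT4G34200) and PSAT (AT4G35630) of the phosphorylated serine pathway, which makes serine from a glycolytic intermediate in plastids, also rose; this list of 6 genes was likewise drawn up after the values were seen. PGDH, for the first enzyme of the pathway, had 52.2, 42.0 and 45.9 CPM in pnet2_ac, against 23.7, 27.2 and 23.3 CPM in WT (0.92 ± 0.15, adjusted p = 0.0168), and is overlapped on the opposite strand over 1020 bases. EDA9, for another form of that enzyme, had 254, 233 and 295 CPM in pnet2_ac and 185, 186 and 204 CPM in WT (0.44 ± 0.09, 0.0352). PSAT, for the aminotransferase of the next step, had 53.0, 54.9 and 54.7 CPM in pnet2_ac and 37.0, 42.9 and 34.8 CPM in WT (0.50 ± 0.10, 0.0319), with an opposite-strand overlap of 326 bases. The 3 pnet2_ac libraries lay above the WT libraries in 4 of the 6 genes, against 9.73% of all tested genes. All 3 calls were lost without pnet2_ac replicate 1 or 3 or WT replicate 1 or 3, where the adjusted p of EDA9 reached 0.122, that of PSAT 0.107 and that of PGDH 0.0691. PGDH kept its call only without pnet2_ac replicate 2 (0.0317) and WT replicate 2 (0.0436), with adjusted p of 0.0523 to 0.0691 without any other library.

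**Figure D2:**
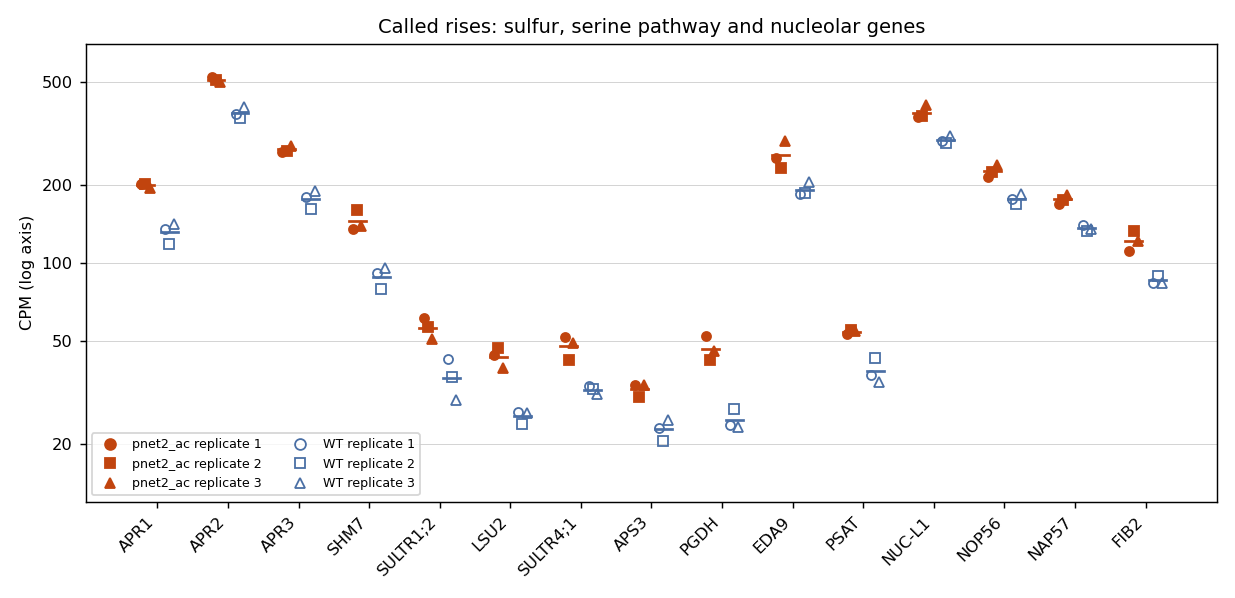
CPM on a log axis in each pnet2_ac library (filled) and each WT library (open) for genes that rose in sulfate assimilation, serine synthesis and the nucleolus; short lines mark the group means. In every gene shown all 3 pnet2_ac libraries lie above all 3 WT libraries, for example 268 to 283 CPM against 162 to 190.3 CPM in APR3.

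Genes of the nucleolus, where ribosomal RNA is made and trimmed and ribosomal subunits are put together, formed another group of rises. A list of 75 tested genes with nucleolar or ribosome assembly terms in their annotation, chosen after the values were seen, had 7 rises and 0 falls; 26 members had all pnet2_ac libraries above all WT libraries and 0 had them all below. Among all tested genes 9.73% lay wholly above WT and 9.91% wholly below. The median over the list was 0.13. FIB2 (AT4G25630) has a close relative, FIB1 (AT5G52470), and reads that fit both genes could have been split between them. FIB2, for fibrillarin, which methylates ribosomal RNA, had 111, 133 and 121 CPM in pnet2_ac, against 83.7, 89.3 and 84.0 CPM in WT (0.51 ± 0.08, adjusted p = 0.0168). NUC-L1 (AT1G48920), for nucleolin, a major nucleolar protein, had 365, 369 and 406 CPM in pnet2_ac and 296, 291 and 308 CPM in WT (0.35 ± 0.06, 0.0188). NAP57 (AT3G57150), for the enzyme that turns uridines of ribosomal RNA into pseudouridine, had 169, 176 and 183 CPM in pnet2_ac and 140.1, 132 and 136 CPM in WT (0.37 ± 0.06, 0.0129). In all 3 genes the groups were separate, and pnet2_ac replicate 1 was the lowest of the pnet2_ac libraries.

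NOP56 (AT1G56110) and its relatives AT5G27120 and AT3G12860 encode proteins that hold fibrillarin on its guide RNAs. AT5G27120 had 112, 126 and 128 CPM in pnet2_ac, against 84.0, 88.3 and 95.0 CPM in WT (0.45 ± 0.07, 0.0129). NOP56 had 214, 224 and 238 CPM in pnet2_ac and 177, 169 and 185 CPM in WT (0.35 ± 0.06, 0.0255). AT3G12860 (0.58 ± 0.12, 0.0397) and AT2G18220, of the Noc2p family (0.36 ± 0.07, 0.0402), were the remaining calls. With pnet2_ac replicate 3 left out none of the 7 was called; 1 remained without WT replicate 1 or 3, 3 remained without pnet2_ac replicate 2 or WT replicate 2, and 5 without pnet2_ac replicate 1. With library size alone 11 members rose, DESeq2 gave 18 and the deposited TPM values gave 18, with no falls under any of these settings. FIB2 was also higher than in pnet2_bc (0.51, 0.0343), where the median of the list against WT was -0.01.

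The promoters of 4 of these genes are shown because they share a short sequence that the choice of the list did not use, although the motif was looked for with the list's values known. The heptamer AACCCTA, known in Arabidopsis as a telomere-like repeat near the starts of many genes for the translation machinery, occurred on at least 1 strand of all 7 promoters, counted from 250 bases before to 50 bases after the annotated gene start. It occurred in 25 of the 75 promoters of the list (33.3%) and in 8.08% of the 23186 promoters of tested genes. Among the 161 fallen genes the share was 3.11%, and among the 105 risen genes it was 14.3% (15 promoters). These 15 include the 7, which were grouped with their rise known, so the share among the rises is no separate evidence for the motif. The site II element TGGGCC occurred in 42.7% of the list and 17.4% of all promoters, but in 12.4% of the risen genes. The promoters of FIB2 (chr4:13073840-13074139, plus strand), NUC-L1 (chr1:18097831-18098130, plus strand), NAP57 (chr3:21156026-21156325, minus strand) and NOP56 (chr1:20986903-20987202, minus strand) are given from RefSeq, build TAIR10.1, on the gene's own strand from 5′ to 3′, with the heptamer or its reverse complement in capitals. A match of letters is a description, not proof of a site in use.
FIB2: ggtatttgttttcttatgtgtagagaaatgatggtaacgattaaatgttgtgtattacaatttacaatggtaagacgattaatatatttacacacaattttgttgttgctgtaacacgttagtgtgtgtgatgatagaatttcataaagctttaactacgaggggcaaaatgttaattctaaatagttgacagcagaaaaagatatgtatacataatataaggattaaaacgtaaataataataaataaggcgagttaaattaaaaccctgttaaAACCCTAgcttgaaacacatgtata
NUC-L1: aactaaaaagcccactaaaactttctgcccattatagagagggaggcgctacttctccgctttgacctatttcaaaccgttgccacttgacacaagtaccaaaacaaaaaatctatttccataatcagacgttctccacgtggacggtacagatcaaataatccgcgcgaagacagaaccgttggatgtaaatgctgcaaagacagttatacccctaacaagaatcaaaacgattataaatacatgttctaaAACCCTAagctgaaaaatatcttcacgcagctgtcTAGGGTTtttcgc
NAP57: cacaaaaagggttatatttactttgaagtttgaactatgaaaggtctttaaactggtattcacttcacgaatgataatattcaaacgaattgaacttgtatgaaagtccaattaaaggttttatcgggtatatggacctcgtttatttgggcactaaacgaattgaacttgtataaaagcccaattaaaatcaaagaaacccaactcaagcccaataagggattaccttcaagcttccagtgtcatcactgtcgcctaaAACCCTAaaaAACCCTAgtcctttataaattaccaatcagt
NOP56: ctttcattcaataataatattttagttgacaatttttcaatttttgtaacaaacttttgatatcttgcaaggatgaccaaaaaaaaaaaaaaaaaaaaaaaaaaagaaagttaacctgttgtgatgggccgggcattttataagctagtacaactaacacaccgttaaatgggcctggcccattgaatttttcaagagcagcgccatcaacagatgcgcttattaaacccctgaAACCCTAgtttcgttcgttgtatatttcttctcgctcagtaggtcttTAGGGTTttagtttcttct

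In these 4 promoters the matches began between 16 bases before and 37 bases after the gene start. For the sulfur genes, the core GAGAC of the sulfur-responsive element was counted on both strands in the same windows; it lies within the reverse complement of the auxin response element TGTCTC, so matches of the longer motif are also matches of the shorter. GAGAC occurred in 5 of the 16 promoters of the sulfur starvation list (31.2%) and in 32.9% of all promoters, and LSU2 was the only one of the 6 called genes of the list to hold it.

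Ribosomal protein genes had small differences. Of 326 tested, 2 rose (P40 (AT1G72370) and AT5G15750) and 0 fell, and the median was 0.11. In 83 (25.5%) all pnet2_ac libraries lay above all WT libraries, against 9.73% of all tested genes. P40, for a protein of the small subunit, had 596, 579.6 and 594 CPM in pnet2_ac and 509, 486 and 509.8 CPM in WT (0.23 ± 0.05, 0.0449), the smallest rise among the 105. It is overlapped on the opposite strand over 124 bases. With library size alone 9 members rose, and with the deposited TPM values 28 did. RPL3B (AT1G61580), annotated as a form of the large-subunit protein L3 and outside the family as its annotation is worded, had 65.6, 65.0 and 71.5 CPM in pnet2_ac, against 46.3, 47.1 and 49.8 CPM in WT (0.50 ± 0.07, 0.0105). RPL3B kept its call with any 1 library left out and was also higher than in pnet2_bc (0.42, 0.0385), while P40 lost its call with any 1 library left out (adjusted p 0.0922 to 0.146).

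Some lists of stress and defence genes had raised medians but few calls, and others did not stand apart from WT. The pattern-triggered immunity list had medians of -0.013, 0.044 and 0.108 in pnet2_ac and -0.035, 0.085 and -0.033 in WT. Of its 25 genes 1 rose, 7 lay wholly above WT and 7 wholly below, and its median of 0.124 ranged from -0.065 to 0.182 over the settings. The median was -0.007 for touch, wound and early calcium genes and -0.046 for NBS-LRR resistance genes. Among 28 jasmonate genes 2 rose and 0 fell, 9 (32.1%) lay wholly above WT and 1 wholly below. The jasmonate medians were 0.397, 0.254 and 0.209 in pnet2_ac and 0.032, -0.018 and 0.0 in WT. No member of the oxidative and mitochondrial stress list was called out of 23 by edgeR, with 15 higher and 2 lower at an unadjusted p under 0.05; DESeq2 called 7 higher and 1 lower. Its medians in the pnet2_ac libraries were 0.54, 0.35 and 0.70, against -0.12, 0.17 and -0.10 in the WT libraries. The unfolded protein response list, of chaperones of the endoplasmic reticulum, also had no call among 22 members by edgeR, with 10 higher and 0 lower at an unadjusted p under 0.05 and 4 called by DESeq2, all higher. In 16 of them (72.7%) all pnet2_ac libraries lay above all WT libraries, as they did in 9.73% of all tested genes. The list's median was 0.17. CNX1 (AT5G61790), for calnexin, had 237, 233 and 236 CPM in pnet2_ac and 196, 194 and 196 CPM in WT (0.27 ± 0.07, adjusted p = 0.0758). BIP1 (AT5G28540), for the chaperone BiP, had 281, 250 and 281 CPM in pnet2_ac and 222, 221 and 223 CPM in WT (0.29 ± 0.07, 0.0918). Both are values and not calls: the groups were separate and the WT libraries nearly equal, but the adjusted p missed the threshold.

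Replicates agreed less in the salicylic acid and low oxygen lists. The medians of the salicylic acid list were 0.74, 0.09 and 0.31 in the pnet2_ac libraries, with replicate 2 inside the WT range of 0.03, 0.11 and -0.11. The low oxygen list had pnet2_ac replicate 1 below the WT libraries and replicates 2 and 3 above them. Within defence-related families, 3 of 69 class III peroxidase genes, whose products act in the cell wall, rose and none fell. AT2G18150 had 15.7, 14.6 and 13.5 CPM in pnet2_ac, against 5.86, 4.37 and 4.68 CPM in WT (1.55 ± 0.21, 0.00719), and kept its call with any 1 library left out. AT4G36430 had 13.3, 11.1 and 13.6 CPM in pnet2_ac and 5.25, 6.67 and 4.63 CPM in WT (1.2 ± 0.21, 0.023), and kept its call only without pnet2_ac replicate 2 (0.04) and WT replicate 2 (0.0436), with adjusted p of 0.0612 to 0.0919 without any other library. PRXCA (AT3G49110) had 15.7, 17 and 24.2 CPM in pnet2_ac, with replicate 3 well above the others, and 9.86, 11.7 and 9.12 CPM in WT (0.89 ± 0.19, 0.047); it lost its call with any 1 of the 6 libraries left out (adjusted p 0.0584 to 0.153). Of 56 glutathione transferase genes, whose products couple glutathione to foreign or damaged compounds, GSTU9 (AT5G62480) and AT5G42150 rose. AT5G42150 had 28.2, 27.5 and 29.5 CPM in pnet2_ac and 18.1, 23.3 and 21.1 CPM in WT (0.45 ± 0.09, 0.0319), and kept its call only without WT replicate 2 (0.0398), with adjusted p of 0.0687 to 0.112 without any other library. GSTU9 had 16.0, 13.8 and 20.9 CPM in pnet2_ac and 7.04, 8.61 and 6.82 CPM in WT (1.18 ± 0.19, 0.0165), and kept its call only without pnet2_ac replicate 1 (0.0432), pnet2_ac replicate 2 (0.0237) and WT replicate 2 (0.0409), with adjusted p of 0.0596 to 0.0691 without any other library. The groups were separate in each of these genes. No WRKY factor was called by edgeR among 63, with 9 higher and 2 lower at an unadjusted p under 0.05 and 2 called higher by DESeq2. No resistance gene of the NBS-LRR type was called among 148, with 5 higher and 5 lower at that level and 1 called lower by DESeq2. Calls made up 1.14% of all tested genes, so their absence here is no result about these families.

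Of 47 receptor-like proteins, which sense microbes or growth signals at the cell surface without a kinase domain, RLP22 (AT2G32660) and RLP23 (AT2G32680) rose and none fell. RLP22 had 1.22, 1.17 and 0.869 CPM in pnet2_ac, against 0.249, 0.290 and 0.378 CPM in WT (1.83 ± 0.27, 0.011), and kept its call with any 1 of the 6 libraries left out (adjusted p at most 0.0486). RLP23, a receptor for a microbial peptide, had 3.03, 0.795 and 1.77 CPM in pnet2_ac and 0.158, 0.174 and 0.459 CPM in WT (2.82 ± 0.60, 0.0438), and kept its call only without pnet2_ac replicate 2 (0.0398), with adjusted p of 0.0682 to 0.138 without any other library. Levels of RLP23 were uneven within both genotypes, while those of RLP22 were low but separate, and RLP22 is overlapped on the opposite strand over 175 bases. In the anthocyanin and flavonol list 11 of 22 genes lay wholly above WT, against 9.73% of all tested genes. The list's median was 0.49, but no member rose by the test. MYBL2 (AT1G71030), a repressor of the pathway and the list's single call, fell; it had 13.0, 12.4 and 18.1 CPM in pnet2_ac and 35.2, 36.7 and 32.6 CPM in WT (-1.27 ± 0.17, 0.0079) and was also lower than in pnet2_bc (-1.17, 0.0231).

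Photosynthesis genes had medians slightly below WT, mostly without calls. Of the 37 photosystem and antenna genes none was called by edgeR, 19 were lower and 0 higher at an unadjusted p under 0.05, and DESeq2 called 7, all lower. Of all 23330 tested genes, 1641 were lower and 1757 higher at that level. By position, 24 of the 37 genes (64.9%) had all pnet2_ac libraries below all WT libraries and 0 had them all above, and the median of the list was -0.17. Over all tested genes 9.91% lay wholly below WT and 9.73% wholly above. Of the 20 Calvin cycle genes 12 (60%) lay wholly below WT, with a median of -0.18, and only PRK (AT1G32060), for the phosphoribulokinase that regenerates the acceptor of carbon dioxide, fell. Its libraries had 1280.0, 1200.0 and 1223 CPM in pnet2_ac and 1567, 1575 and 1672 CPM in WT (-0.38 ± 0.05, 0.01). Summed over the mesophyll markers, levels were 48680.0, 45440.0 and 49640.0 CPM in pnet2_ac, against 50170.0, 51770.0 and 56650.0 CPM in WT; 3 of the 8 markers lay wholly below WT, none was called by edgeR, 3 were lower and 0 higher at an unadjusted p under 0.05, and DESeq2 called 2 lower. Their part in the lower photosynthesis genes was not tested. Over all settings tried the median stayed between -0.18 and -0.11 for the photosystem list and between -0.23 and -0.13 for the Calvin cycle list.

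HCF173 (AT1G16720), needed for translation of a photosystem II core subunit in the chloroplast, fell with any library left out. It had 219, 194 and 207 CPM in pnet2_ac, against 384, 367 and 368 CPM in WT (-0.85 ± 0.09, adjusted p = 0.00123), and is overlapped on the opposite strand over 373 bases. NCED4 (AT4G19170), annotated among the carotenoid-cleaving dioxygenases, had 76.7, 66.5 and 67.7 CPM in pnet2_ac and 141, 140.2 and 125 CPM in WT (-0.94 ± 0.11, 0.00253). ATSPS4F (AT4G10120), for a sucrose-phosphate synthase, had 221, 197 and 179.8 CPM in pnet2_ac and 344, 324 and 324 CPM in WT (-0.73 ± 0.09, 0.00253). The groups were far apart in all 3 genes, and each kept its call with any 1 library left out (adjusted p at most 0.0198). LON2 (AT5G47040), a protease of the peroxisome, kept its call too, with 262, 252 and 259 CPM in pnet2_ac and 368, 368 and 394 CPM in WT (-0.55 ± 0.08, 0.01), as did the chloroplast glutathione peroxidase gene GPX1 (AT2G25080, -0.61 ± 0.09, 0.0112).

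The photorespiratory pathway, which recovers carbon after oxygen enters the Calvin cycle and runs through chloroplast, peroxisome and mitochondrion, had 5 falls and no rise in a list of 23 genes drawn up after the values were seen. In 14 of its genes (60.9%) all pnet2_ac libraries lay below all WT libraries, in 3 they all lay above, and the median was -0.18. Over all tested genes 9.91% lay wholly below WT and 9.73% wholly above. CAT2 (AT4G35090), the leaf catalase that removes the pathway's hydrogen peroxide, had 1514, 1314 and 1336 CPM in pnet2_ac, against 2278, 1760.0 and 2225 CPM in WT (-0.59 ± 0.10, 0.0181). GLDP2 (AT2G26080), for the glycine decarboxylase P protein, had 1159, 1035 and 1054 CPM in pnet2_ac and 1458, 1315 and 1356 CPM in WT (-0.35 ± 0.06, 0.023). GOX2 (AT3G14415), for glycolate oxidase, had 892, 848 and 925 CPM in pnet2_ac and 1091, 1093 and 1098 CPM in WT (-0.30 ± 0.06, 0.0281). WT replicate 2 was the lowest WT library for CAT2 and still stood above every pnet2_ac library; the WT libraries of GOX2 were almost equal. SHM1 (AT4G37930), for the mitochondrial serine hydroxymethyltransferase (-0.26 ± 0.05, 0.0339), and GS2 (AT5G35630), for the glutamine synthetase that reclaims ammonia (-0.25 ± 0.05, 0.041), fell by less. Without pnet2_ac replicate 2 or 3 or WT replicate 1 or 3 no member was called, and 2 were without pnet2_ac replicate 1 or WT replicate 2. With library size alone or the deposited TPM values 2 were called, and by DESeq2 11.

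Of the 18 genes of nitrate and nitrogen use, GS2 and NIA2 (AT1G37130) fell and none rose. NIA2, the main nitrate reductase gene, had 1341, 1276 and 1420.0 CPM in pnet2_ac, against 1785, 1800.0 and 1807 CPM in WT (-0.42 ± 0.05, adjusted p = 0.0045). Its 3 WT libraries were nearly equal, all pnet2_ac libraries lay below them, and it kept its call with any 1 of the 6 libraries left out (adjusted p at most 0.0291).

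**Figure D3:**
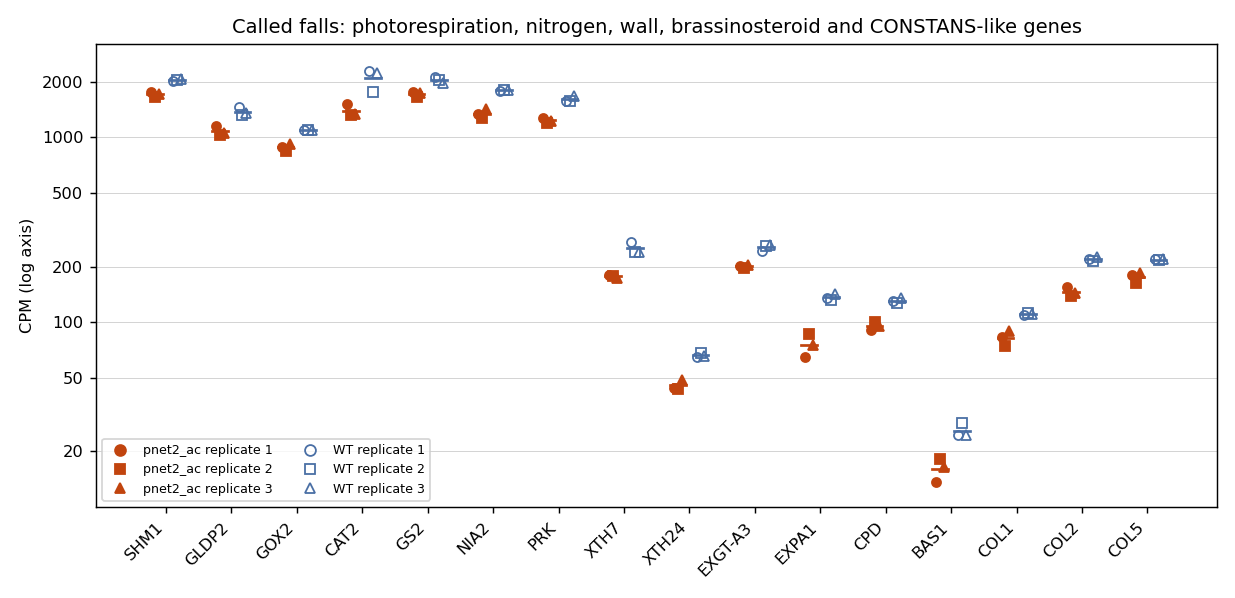
CPM on a log axis in each pnet2_ac library (filled) and each WT library (open) for genes that fell in photorespiration, nitrogen use, cell wall loosening, brassinosteroid synthesis and response and the CONSTANS-like family; short lines mark the group means. In every gene shown all 3 pnet2_ac libraries lie below all 3 WT libraries, for example 1276 to 1420.0 CPM against 1785 to 1807 CPM in NIA2.

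Among genes of cell wall loosening and growth, falls were few and no XTH, expansin, aquaporin or SAUR gene rose. Over all tested genes 0.45% rose and 0.69% fell, so an absence of rises in families of this size is no result about them. Wholly below WT lay 9.91% of all tested genes, and wholly above it 9.73%. Of 32 xyloglucan endotransglucosylase/hydrolase genes, whose products cut and rejoin wall polysaccharides, 4 fell, 10 lay wholly below WT and 0 wholly above, although the median of the family was -0.05 and ranged from -0.17 to 0.03 over the settings. XTH7 (AT4G37800) had 179, 177 and 174 CPM in pnet2_ac, against 271, 239.9 and 241 CPM in WT (-0.50 ± 0.08, 0.0145). XTH6 (AT5G65730) had 104, 102 and 80.8 CPM in pnet2_ac and 200.3, 159.6 and 155 CPM in WT (-0.85 ± 0.16, 0.0274). EXGT-A3 (AT2G01850) had 202, 198 and 204 CPM in pnet2_ac and 243, 257 and 261 CPM in WT (-0.33 ± 0.06, 0.0198). The groups were separate in all 3 genes, and XTH6 varied most, with WT replicate 1 the highest library. XTH24 (AT4G30270) was the other call. With any 1 library left out 1 of the 4 stayed called: XTH7 lost its call without pnet2_ac replicate 3 (0.058) and WT replicate 1 (0.0569) and kept it without any other library, XTH24 kept its call only without pnet2_ac replicate 3 (0.0468), with adjusted p of 0.0571 to 0.0649 without any other library, EXGT-A3 kept its call only without WT replicate 1 (0.039), with adjusted p of 0.0584 to 0.0742 without any other library, and XTH6 lost its call with any 1 of the 6 libraries left out (adjusted p 0.0584 to 0.103).

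EXPA1 (AT1G69530), an expansin gene of growing tissue and guard cells, was the single call among 24 expansins. It had 64.9, 85.9 and 75.3 CPM in pnet2_ac and 136, 131 and 142 CPM in WT (-0.86 ± 0.16, 0.0274), and kept its call only without pnet2_ac replicate 2 (0.0408), with adjusted p of 0.0707 to 0.0919 without any other library. PIP1;5 (AT4G23400), an aquaporin of the plasma membrane and the single call among 30 genes whose annotation reads aquaporin or intrinsic protein, had 129, 132 and 125 CPM in pnet2_ac, against 200, 191 and 187 CPM in WT (-0.58 ± 0.07, 0.00335), and kept its call with any 1 of the 6 libraries left out (adjusted p at most 0.0231). DELTA-TIP (AT3G16240), an aquaporin gene of the vacuole membrane whose annotation is worded differently, fell too, with 737, 748 and 737 CPM in pnet2_ac and 999.6, 906 and 925 CPM in WT (-0.35 ± 0.07, 0.0389); it is overlapped on the opposite strand over 445 bases and lost its call with any 1 of the 6 libraries left out (adjusted p 0.0835 to 0.126). Among the auxin-responsive SAUR genes 3 of 70 fell and none rose, 23 (32.9%) lay wholly below WT and 3 wholly above, and the median was -0.20. Their medians were -0.27, -0.16 and -0.20 in the pnet2_ac libraries, all below the -0.01, 0.01 and 0.04 of the WT libraries. AT4G38860 had 26.3, 26.4 and 30.8 CPM in pnet2_ac and 48.2, 43.2 and 48.9 CPM in WT (-0.75 ± 0.15, 0.0319), and SAUR68 (AT1G29510) had 9.94, 8.66 and 8.73 CPM in pnet2_ac and 14.6, 15.2 and 15.5 CPM in WT (-0.73 ± 0.15, 0.0397); both lost their calls with any 1 library left out (adjusted p 0.0706 to 0.13).

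Brassinosteroids are steroid hormones of cell expansion, and 3 of the 18 genes of their list fell while none rose (median -0.14). CPD (AT5G05690), a cytochrome P450 of their synthesis that is repressed by the hormone, had 90.6, 100.5 and 94.9 CPM in pnet2_ac, against 131, 127 and 135 CPM in WT (-0.46 ± 0.07, 0.0125). BAS1 (AT2G26710), a cytochrome P450 that inactivates the hormone, had 13.7, 18.2 and 16.5 CPM in pnet2_ac and 24.6, 28.4 and 24.6 CPM in WT (-0.68 ± 0.12, 0.0229). PRE1 (AT5G39860), a small growth-promoting factor of the bHLH class, had 1.97, 1.19 and 1.38 CPM in pnet2_ac and 3.68, 4.44 and 5.38 CPM in WT (-1.57 ± 0.32, 0.0368). One gene of synthesis, one of inactivation and one of the growth response were thus lower, with the groups separate in each. CPD kept its call only without pnet2_ac replicate 2 (0.0269), WT replicate 1 (0.0445) and WT replicate 2 (0.0409), with adjusted p of 0.051 to 0.0523 without any other library. BAS1 kept its call only without pnet2_ac replicate 2 (0.0323), with adjusted p of 0.0571 to 0.0835 without any other library. PRE1 lost its call with any 1 of the 6 libraries left out (adjusted p 0.0584 to 0.126). BEE2 (AT4G36540), another bHLH gene named for its response to the hormone, is not in that list and had 70.6, 69.7 and 71.6 CPM in pnet2_ac and 112, 111 and 107 CPM in WT (-0.64 ± 0.09, 0.0098), a call kept with any 1 library left out.

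Other falls belonged to the leaf surface, phenylpropanoid synthesis and light signalling. KCS6 (AT1G68530), for the enzyme that lengthens fatty acids of stem and leaf wax, had 225, 199 and 195 CPM in pnet2_ac and 290.0, 261 and 272 CPM in WT (-0.41 ± 0.08, 0.0346), and kept its call only without pnet2_ac replicate 1 (0.0487), with adjusted p of 0.0713 to 0.127 without any other library. In the list of suberin, cutin and wax genes 9 of 20 lay wholly below WT, with pnet2_ac replicate 3 the lowest library (medians -0.08, -0.10 and -0.39). Among all tested genes 9.91% lay wholly below WT. HCT (AT5G48930), of lignin precursor synthesis, had 245, 224 and 235 CPM in pnet2_ac and 299, 309.8 and 311 CPM in WT (-0.39 ± 0.06, 0.0165), and 4CL1 (AT1G51680), which acts before it, had 266, 251 and 252 CPM in pnet2_ac and 341, 318 and 302 CPM in WT (-0.32 ± 0.07, 0.0413). HCT kept its call only without pnet2_ac replicate 1 (0.0399) and WT replicate 1 (0.0445), with adjusted p of 0.0531 to 0.0644 without any other library, and 4CL1 lost its call with any 1 of the 6 libraries left out (adjusted p 0.0691 to 0.132). PIL6 (AT3G59060), for a factor that phytochromes inactivate in light, fell (-0.42 ± 0.09, 0.0352), and it lost its call with any 1 of the 6 libraries left out (adjusted p 0.0574 to 0.12).

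Of 7 genes annotated as CONSTANS-like, zinc finger regulators tied to light and day length, 3 fell and none rose; this family was picked after its values were seen. COL2 (AT3G02380) had 156, 139 and 144 CPM in pnet2_ac, against 219, 214 and 224 CPM in WT (-0.58 ± 0.11, 0.0249). COL1 (AT5G15850) had 83.6, 74.8 and 89.3 CPM in pnet2_ac and 110.0, 112 and 111 CPM in WT (-0.42 ± 0.09, 0.0436). COL5 (AT5G57660) had 179, 163 and 185 CPM in pnet2_ac and 220.1, 216 and 219 CPM in WT (-0.31 ± 0.06, 0.0322). The WT libraries were close to one another in all 3 genes, and pnet2_ac replicate 2 was the lowest library in each. COL1 and COL2 are overlapped on the opposite strand over 1807 and 771 bases, and all 3 calls were lost with any 1 library left out (adjusted p 0.0553 to 0.138).

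Lists tied to the nucleus and its DNA held a single call. Over all tested genes 1.14% were called, so a lack of calls in lists of this size is no result about them. In the nuclear envelope and lamina list 1 of 23 genes rose, WIP1 (AT4G26455), for a protein of the outer nuclear membrane, with 290.4, 384 and 306 CPM in pnet2_ac and 21.1, 22.4 and 18.1 CPM in WT (3.99 ± 0.12, 3.04e-09); the median of the list was -0.01. WIP1 kept its call with any 1 of the 6 libraries left out. In pnet2_bc no gene of this list was called higher than in WT, and 1 was called lower. No gene was called by edgeR among 26 genes of cell division and DNA replication, 15 of the DNA damage response and 28 of DNA methylation and Polycomb silencing. At an unadjusted p under 0.05 the numbers were 2 higher and 0 lower, 2 higher and 0 lower, and 2 higher and 1 lower, and DESeq2 called 1 higher, 1 higher and 1 lower. Of all 23330 tested genes, 1757 were higher and 1641 lower at that unadjusted level. None of 44 histone genes was called (1 higher and 3 lower unadjusted, 1 higher by DESeq2) and none of 23 nucleoporins (2 higher and 1 lower unadjusted, 0 by DESeq2).

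Calls were also found among regulators and other families. Among 90 factors of the ERF and DREB class ERF6 (AT4G17490) rose and ESE3 (AT5G25190) fell. Of 263 pentatricopeptide repeat genes AT3G29240 fell, and of 234 F-box genes AT1G23390 and AT1G73120 fell. Over all tested genes 0.45% rose and 0.69% fell, so these few calls are no result about the ERF, pentatricopeptide or F-box families. Of 200 cytochrome P450 genes 3 rose and 4 fell. CYP71B19 (AT3G26170) had 1.93, 2.40 and 2.13 CPM in pnet2_ac and 1.26, 0.930 and 0.931 CPM in WT (1.04 ± 0.17, 0.0165), with separate groups; it lost its call without WT replicate 2 (0.0632) and WT replicate 3 (0.0691) and kept it without any other library. In the senescence and sugar starvation list 9 of 19 genes lay wholly below WT and none wholly above, against 9.91% and 9.73% of all tested genes. From that list BXL1 (AT5G49360), for an enzyme that trims wall xylans, fell, with 424, 444 and 428 CPM in pnet2_ac and 666, 699.6 and 704 CPM in WT (-0.68 ± 0.13, 0.0302). It lost its call with any 1 of the 6 libraries left out (adjusted p 0.0741 to 0.101). GASA1 (AT1G75750), a gibberellin-regulated gene, fell as well, with 172, 195 and 182 CPM in pnet2_ac and 231, 237 and 234 CPM in WT (-0.36 ± 0.07, 0.0252); it kept its call only without pnet2_ac replicate 2 (0.0352), with adjusted p of 0.0654 to 0.0854 without any other library.

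The replicates agreed closely in the called genes. The ratio of the highest to the lowest library had a median of 1.16 in pnet2_ac and 1.12 in WT over the 266 genes; it stayed under 1.2 in 173 genes in pnet2_ac and in 183 in WT, and exceeded 2 in 11 genes in pnet2_ac and in 12 in WT. The median SD of log2 CPM was 0.112 in pnet2_ac and 0.0848 in WT over the called genes, and 0.155 in pnet2_ac and 0.169 in WT over all tested genes; low spread is part of what the test selects for. The medians of the 3 pnet2_ac libraries were also alike, which the choice of genes by a test on these same libraries favours. The median over the risen genes of log2 CPM minus the WT mean was 0.66, 0.63 and 0.62 in pnet2_ac replicates 1, 2 and 3, and over the fallen genes it was -0.45, -0.52 and -0.49. Replicate 2 was the lowest pnet2_ac library in 78 of the 161 falls, replicate 1 in 40 and replicate 3 in 43, while replicate 1 was the highest in 45 of the 105 rises.

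Whole transcriptomes were less even. On a principal component analysis of the 6 libraries the first component (27.3% of the variance) put the 3 pnet2_ac libraries at -35.6, -32.3 and -35.8 and the WT libraries at 79.0, 20.5 and 4.21, so that WT replicate 1 stood apart. The second (22.4%) set pnet2_ac replicate 2 at -67.7 apart from the others. Leaf and root were both present in every library: the mesophyll sums are given above, and markers of the root endodermis, stele and cap summed to 207, 216 and 174 CPM in pnet2_ac and 229, 213 and 170.3 CPM in WT, while markers of stored seed proteins summed to 1.94, 1.43 and 0.521 CPM in pnet2_ac and 1.73, 1.70 and 1.90 CPM in WT. Root hair markers differed between single libraries: their summed level was 35.7, 71.5 and 32.9 CPM in pnet2_ac and 72.6, 59.0 and 38.3 CPM in WT, and no marker was called out of 12 by edgeR or by DESeq2, nor passed an unadjusted p of 0.05. Xylem markers summed to 89.8, 102 and 59.3 CPM in pnet2_ac and 97.5, 78.8 and 49.5 CPM in WT, with replicate 3 lowest in both genotypes. The part of these tissues in the results was not tested. Genes of the mitochondrial genome showed the same unevenness: none of 48 was called by edgeR or by DESeq2, 1 was higher and 0 lower at an unadjusted p under 0.05, and their medians were 0.55, 0.39 and 0.85 in pnet2_ac and -0.25, -0.06 and 0.30 in WT. Their median of 0.53 was -0.01 with WT replicate 1 and pnet2_ac replicate 2 both left out.

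The number of calls rested on having all libraries. With 1 of the 6 left out it fell to between 59, without WT replicate 3, and 129, without pnet2_ac replicate 2, as the plot of calls with each library left out shows, and with WT replicate 1 and pnet2_ac replicate 2 both left out it was 17. All 266 genes kept their direction in each of these fits. Their groups were separate with all libraries, so this outcome was nearly fixed beforehand and adds no support. In all, 36 genes stayed called whichever single library was left out (12 that rose and 24 that fell), and 100 stayed called in none of the 6 fits. Beside those already described, the 36 include RMA2 (AT4G28270), for a membrane-bound ubiquitin ligase, with 52.2, 53.0 and 52.6 CPM in pnet2_ac and 83.2, 96.6 and 94.6 CPM in WT (-0.80 ± 0.09, 0.00214). They also include AT1G23390, for an F-box protein with Kelch repeats, with 242, 232 and 235 CPM in pnet2_ac and 352, 384 and 359.5 CPM in WT (-0.63 ± 0.07, 0.0027).

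**Figure D4:**
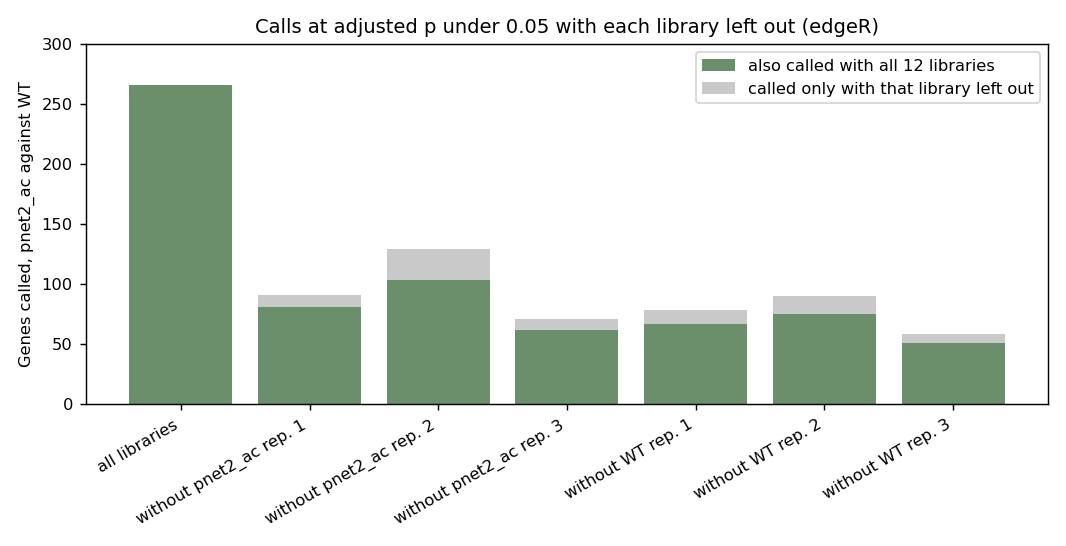
Number of genes called in pnet2_ac against WT (y axis) with all 12 libraries in the fit and with each pnet2_ac or WT library left out; the green part of each bar is also called with all libraries. The number is 266 with all libraries and 59 to 129 with 1 left out, of which 51 to 104 are among the 266.

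A few genes differed by a large factor. AT1G75945 (chromosome 1), annotated as an uncharacterized protein, had 11.9, 12.5 and 12.2 CPM in pnet2_ac, against 0, 0.0872 and 0 CPM in WT (adjusted p = 5.44e-05). AT1G08750, of the C13 peptidase family, had 33.0, 26.7 and 49.5 CPM in pnet2_ac and 10.3, 10.6 and 11.4 CPM in WT (1.76 ± 0.17, 0.000868). The 3 pnet2_ac libraries of AT1G75945 were almost equal and far above WT, whereas those of AT1G08750 spread 1.85-fold, with replicate 3 the highest. Among the falls, AT1G67105, a non-coding RNA gene, had 0.786, 0.609 and 1.26 CPM in pnet2_ac, against 31.6, 65.7 and 13.2 CPM in WT (-5.39 ± 0.50, 0.00058). AT1G61690, annotated as a phosphoinositide-binding protein, had 10.4, 7.93 and 9.19 CPM in pnet2_ac and 36.1, 30.3 and 25.8 CPM in WT (-1.74 ± 0.13, 5.44e-05). The WT libraries of AT1G67105 spread widely, with replicate 2 the highest, and those of AT1G61690 less so, yet every one of them lay above every pnet2_ac library, and both genes kept their calls with any 1 library left out (adjusted p at most 0.00713 and 0.000736). Other large rises that kept their calls included MRD1 (AT1G53480, 2.06 ± 0.29, 0.00927), which overlaps an opposite-strand gene over 1446 bases, and the receptor kinase gene AT1G35710 (2.00 ± 0.23, 0.00253). Other large falls that did included AT3G62070, uncharacterized (-1.2 ± 0.17, 0.00812), THI2.2 (AT5G36910), for a thionin (-1.10 ± 0.15, 0.00809), and AT1G62510, of the lipid-transfer protein family (-1.03 ± 0.15, 0.01), with an opposite-strand overlap of 535 bases.

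Large rises were not always even. RD20 (AT2G33380), a caleosin gene induced by drought, had 49.4, 13.9 and 15.8 CPM in pnet2_ac and 7.24, 5.04 and 4.84 CPM in WT (2.21 ± 0.41, 0.0262), so that replicate 1 stood far above replicates 2 and 3, and it kept its call only without pnet2_ac replicate 1 (0.0303), pnet2_ac replicate 2 (0.0218) and pnet2_ac replicate 3 (0.0428), with adjusted p of 0.0654 to 0.0976 without any other library. AT3G05640, for a protein phosphatase of the 2C class, had 15.3, 6.78 and 8.25 CPM in pnet2_ac and 3.55, 5.08 and 2.81 CPM in WT (1.41 ± 0.30, 0.0456), again with replicate 1 the highest, and it kept its call only without pnet2_ac replicate 2 (0.04), with adjusted p of 0.0632 to 0.142 without any other library. APX1 (AT1G07890), for the cytosolic ascorbate peroxidase that removes hydrogen peroxide, rose by less and more evenly, with 615, 656 and 694 CPM in pnet2_ac and 486, 509.6 and 469 CPM in WT (0.42 ± 0.07, 0.0226), and it kept its call only without pnet2_ac replicate 1 (0.0409), with adjusted p of 0.0541 to 0.0883 without any other library. AT4G03450, AT1G34480 and PHS1 (AT1G10710) had no count in 1 of the genotypes. AT4G03450, for an ankyrin repeat protein, was at least 43.4-fold higher in pnet2_ac and AT1G34480, for a C1 domain protein, at least 12.5-fold higher, counted against 3 counts over the 3 WT libraries. PHS1, a gene of meiotic chromosome pairing, was at least 20.5-fold lower in pnet2_ac on the same reckoning, from 28, 20 and 4 counts in the WT libraries. AT4G03450 kept its call only without pnet2_ac replicate 2 (0.0465), with adjusted p of 0.0563 to 0.0691 without any other library, and the other 2 lost theirs with any 1 left out (adjusted p 0.0688 to 0.131).

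The called genes were spread over the genome. Between 0.909% of the tested genes on chromosome 2 and 1.49% on chromosome 4 were called. Within 500000 bases on either side of AT1G28760, AT3G49840 and AT5G67610 the share was 1.87% (4 of 214, all lower), 0.844% (2 of 237, both higher) and 2.7% (1 higher and 3 lower of 148). Around WIP1, the gene of the nuclear envelope list that rose, 3 genes rose and 1 fell of 280 (1.43%), with FIB2 among those that rose. In 3 cases called genes were neighbours: SAUR15 (AT4G38850) and AT4G38860, which lie 3407 bases apart and both fell, COL1 and PCME (AT5G15860), which lie 259 bases apart and both fell, and AT3G29240 and SDR4 (AT3G29250), which lie 344 bases apart, of which AT3G29240 fell and SDR4 rose.

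To see which differences were not shared with the other double mutant, pnet2_ac was tested against pnet2_bc. This test called 60 genes (0.257% of those tested), and 28 of the 266 genes called against WT were among them, 10 that rose and 18 that fell; both tests use the same pnet2_ac libraries. Beside FIB2 and RPL3B, these included LON2 (-0.42, adjusted p = 0.0471), NCED4 (-0.70, 0.0286) and PRE1 (-1.78, 0.0453). AT1G75945 had 0.487, 0.204 and 0.207 CPM in pnet2_bc (5.34, 0.000555) and AT1G08750 had 12.2, 12.8 and 12.7 CPM (1.54, 0.00358), each below every pnet2_ac library of that gene. CYP81D11 (AT3G28740), a cytochrome P450 gene, had 13.3, 11.4 and 10.7 CPM in pnet2_ac, 21.4, 27.3 and 22.1 CPM in pnet2_bc and 25.6, 22.9 and 22.8 CPM in WT, and differed from both (-1.0, 0.0286 against pnet2_bc and -1.01 ± 0.15, 0.0121 against WT). OLI2 (AT5G55920), an Arabidopsis gene for a methyltransferase of ribosome assembly, was higher than in pnet2_bc as well (0.44, 0.0371). The other 238 called genes did not pass this test, which does not show that the double mutants were alike in them. The number of genes that differed was 132 without pnet2_ac replicate 1 and 8 without replicate 2, so that this comparison rested on single libraries. Against the same WT libraries, 53 of the 266 were called the same way in pnet2_bc and 1 the other way. Among the 53 were the falls of EXPA1, XTH7, XTH24, PIP1;5, CPD and BAS1. XTH6 and EXGT-A3 were not called in pnet2_bc.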

How the data were processed

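The deposited table held counts per gene, and per the submitters' processing notes the tools were HISAT2 2.0.4 and HTSeq 0.6.1p1 with build TAIR10; whether counting used strand is not stated. The deposited TPM values came, per the name of the table, from kallisto and served as a check. Counts of all 12 libraries (4 genotypes, 3 libraries each) were fitted with edgeR 4.0.16 in R 4.3.3: genes with few counts removed (filterByExpr), TMM scaling, quasi-likelihood test, Benjamini-Hochberg adjustment over 23330 genes, threshold 0.05. TPM values were tested as log2(TPM + 1) with limma 3.58.1 on genes with a mean of at least 1 TPM, so fold changes on that scale understate those of low genes; DESeq2 1.42.0 was the other count model. Counting 3 reads as the limit of detection covers counting error only. The model was also run on simulated counts drawn independently for each library, so that run says nothing about uneven libraries. Tables and figures were made in Python 3.11.15 with pandas 2.3.3, numpy 2.4.6 and matplotlib 3.10.9.

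Gene IDs were joined to the RefSeq annotation of TAIR10.1, where 27173 of 27436 matched and the other 263 were organelle IDs; coordinates are those of TAIR10.1. The lists and families were chosen with earlier results of these data known. The lists of sulfate assimilation, serine synthesis, photorespiration, nucleolar and CONSTANS-like genes were added after their values were seen, and the words that pick ERF, pentatricopeptide and histone genes were corrected after they matched unrelated annotation. Genes were named by rule: the DUF2215 genes, the 6 largest and 6 most significant called rises and falls with at least 5 CPM and separate groups, the 4 most abundant rises and falls, up to 3 called members of each list (or the 2 of smallest p where none was called), the 3 with the widest spread in pnet2_ac, and neighbouring called genes. Of the 117 genes this picked, some list members are covered only by their list's counts, and some are not described. The auxin response list had 1 fall of 25 genes and the iron homeostasis list 1 fall of 22. The circadian clock list had 1 rise and 1 fall of 22, and the flowering time list 1 rise of 19. Over all tested genes 1.14% were called. Genes of the added lists, SULTR1;2, SULTR2;1, LSU1, LSU2, LSU3, ATSDI1, AT5G26220, DELTA-TIP, XTH6, RPL3B, LON2, GPX1, BEE2, OLI2 and the 3 genes with no count in 1 genotype were named after their values were seen. Deviations of same-numbered pnet2_ac and WT libraries correlated at 0.0405, 0.0857 and 0.215 over 15325 genes, and those of other-numbered ones at -0.192 to 0.11. These values do not settle whether the numbers pair the libraries, and no pairing was assumed.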

Additional observations from a re-analysis of the deposited data

How the results depend on the processing

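Each of the 266 called genes kept its direction under every alternative that could fit it, which the separation of the groups made nearly certain. Calls numbered 1087 by DESeq2 (423 higher, 664 lower) and 411 by limma on log2(TPM + 1) (268 higher), with 249 higher on log2(TPM + 0.1); library size alone gave 198 higher and 95 lower. With 1 library left out the calls numbered 59 to 129 (25 to 67 higher, 34 to 62 lower), and 17 with WT replicate 1 and pnet2_ac replicate 2 both left out (10 higher, 7 lower). Genes that differed between pnet2_ac and pnet2_bc numbered 501 by DESeq2 and 8 to 132 with 1 library left out. The replicate block, with numbers that were not shown to pair the libraries, gave 229 calls, 195 of them among the 266; only some libraries correlated best with their own number. With 1 library left out, list medians ranged over 0.202 to 0.493 for jasmonate, 0.158 to 0.195 for the unfolded protein response, -0.226 to -0.146 for brassinosteroid, 0.634 to 0.750 for sulfur starvation, -0.284 to -0.165 for senescence and sugar starvation and -0.305 to -0.189 for SAUR genes. Library size alone gave 0.227 for the unfolded protein response, -0.084 for brassinosteroid, -0.158 for senescence and -0.147 for SAUR genes; log2(TPM + 1) gave 0.203, -0.078 and -0.155 for the first 3, and log2(TPM + 0.1) gave 0.210 and -0.160 for the unfolded protein response and senescence. Jasmonate stood at 0.199 among genes of at least 5 CPM, and with both libraries left out senescence stood at -0.301 and SAUR genes at -0.292. AT5G67610 ranged over -0.029 to 0.13, below zero without WT replicate 2. Why these values moved was not tested.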
